A study of Homo sapiens with 6 samples.

Results

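The autophagy machinery genes are 40 genes whose products start, build, load and close the autophagosome. They were taken by gene name from a list that was chosen with earlier results of these data known. All 40 were found among the 33981 genes of the deposited count table. THP-1 is an established human acute myeloid leukemia line of monocytic type. The cells were infected with a lentivirus carrying either scrambled shRNA (3 samples) or an shRNA against NFIC (3 samples), sorted for GFP 4 days later, and sequenced as bulk mRNA. All 6 samples therefore carried a lentiviral vector, which by the study's methods drives the hairpin or the scrambled sequence from a U6 promoter beside EGFP, and went through the same sort. The labels call the control scrambled shRNA, and the results text and figure legend of the study also call it scrambled. The sequencing methods of the study instead describe it as a vector with GFP alone. The control libraries are titled C1, C3 and C4 in the labels and are named C1, C2 and C4 in the text of the study. They are called scrambled replicates 1 to 3 here, so that scrambled replicate 2 is the library titled C3. The labels name 1 hairpin condition only, and whether another hairpin against NFIC gives the same changes was not tested here. The labels do not say whether the 3 samples of a group came from separate cultures. The p-values therefore measure the spread between these samples, which may be technical.

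Autophagy delivers cytoplasm, protein aggregates and organelles to the lysosome in a double-membraned vesicle. The ULK kinase complex gives the starting signal, a BECN1-containing lipid kinase complex marks the membrane with phosphatidylinositol 3-phosphate, and ATG9, ATG2 and the WIPI proteins supply and shape the membrane. A ubiquitin-like conjugation system then attaches the ATG8 proteins (the LC3 and GABARAP families) to the membrane, where cargo receptors bind them and bring ubiquitinated cargo. In myeloid cells the pathway is known for clearing organelles and microbes and for its part in monocyte to macrophage maturation.

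The samples held 20369543 to 24809720 counts each, so that 3 counts, the limit that a count of 0 allows, equal 0.121 to 0.147 CPM (counts scaled to library size), and this covers counting error only. NFIC, the target of the hairpin, had 42.1, 41.4 and 42.2 CPM with scrambled shRNA against 19.4, 22.3 and 21.4 CPM with the hairpin. The groups were far apart, and the log2 fold change was -0.99 ± 0.07 (SE) with an edgeR adjusted p of 3.73e-09. All 10 monocytic markers on the list were detected. CD14, ITGAM, LYZ and MNDA rose after knockdown (4 markers), while 3 fell, namely CD33, CSF1R and CD68. The summed level of the 10 went from 1475 to 1609 CPM to 1743 to 1936 CPM. LYZ alone rose from a mean of 572 to 940 CPM. By contrast, CD68 fell from a mean of 261 to 130 CPM and CSF1R from 219 to 146 CPM. The higher sum thus rests on LYZ and does not describe the monocytic list as a whole. Of 11 tested granulocyte markers 9 were lower and 2 higher, and their sum went from 6103 to 6849 CPM to 3596 to 3647 CPM, with LTF at 0 counts in 5 of the 6 samples. Lymphoid, erythroid and epithelial or fibroblast markers summed to at most 6.59 CPM per list and sample. These myeloid markers moved in the same samples as every autophagy group described here, and their part in these results was not tested. In bulk RNA, a change in the mix of cells and a change of RNA per cell cannot be told apart.

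More autophagy machinery genes were higher than lower after NFIC knockdown. Of the 40 members, 29 were higher, 5 were lower and 6 did not pass the test (edgeR's quasi-likelihood test, Benjamini-Hochberg adjusted p under 0.05 over the 19182 genes tested). Over all tested genes, 59.9% were called, 29.6% as higher and 30.3% as lower, against 72.5% of the members as higher and 12.5% as lower. Among the 10308 protein-coding genes at or above the level of the lowest member (a mean of 7.28 CPM), 39.7% were called higher. The CPM of the 2 groups did not overlap for 35 members, where this held for 65.2% of all tested genes. The median log2 fold change of the members was 0.41, with a range of -1.14 to 1.11, beside -0.01 over all tested genes and 0.06 over the protein-coding genes at that level.

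The changes were moderate in size. OPTN and RUBCN were at least 2-fold higher and MAP1LC3A at least 2-fold lower, and 16 higher and 3 lower members had an absolute log2 fold change of at least 0.5. By role, all 5 cargo receptors and the tether EPG5 rose, as did 4 of 5 ATG8 genes and 4 of 5 genes of the ATG9, ATG2 and WIPI group. Higher too were 8 of 11 conjugation genes and 2 of 5 genes of the ULK complex. For the lipid kinase complex and its regulators, this held for 5 of 8 genes. The members called lower were ATG13 and ATG101 of the ULK complex, ATG16L2 of the conjugation system, MAP1LC3A, and ATG10, whose counts cannot be told apart from those of the overlapping gene RPS23.

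Exons of 22 members overlap exons of another gene in the table by the GENCODE annotation, and whether the authors' counting used strand is not given in the sources used here. Reads in such a stretch cannot be assigned with certainty. Among the 18 members without any such overlap, 12 were higher and 1, MAP1LC3A, was lower, with a median log2 fold change of 0.36. This split was chosen after the data were seen.

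Promoter sequences are shown for the members that hold either of a pair of short motifs, since these letters are the known core of sites for the MiT/TFE factors that drive lysosomal and autophagy genes (CACGTG) and for the NFI family to which NFIC belongs (TTGGCA). RefSeq windows (GRCh38.p14) from 250 bases before to 50 bases after the start were at hand for 35 of the 40 members, of which 26 were higher, 4 lower and 5 not called. Capitals mark CACGTG in ATG14 and ATG3, TTGGCA in RUBCNL, and its reverse complement TGCCAA in ATG4C. ATG14 lies at chr14:55411781-55412080, ATG3 at chr3:112561913-112562212 and RUBCNL at chr13:46389993-46390292, all on the minus strand, and ATG4C lies at chr1:62783882-62784181 on the plus strand.
ATG14: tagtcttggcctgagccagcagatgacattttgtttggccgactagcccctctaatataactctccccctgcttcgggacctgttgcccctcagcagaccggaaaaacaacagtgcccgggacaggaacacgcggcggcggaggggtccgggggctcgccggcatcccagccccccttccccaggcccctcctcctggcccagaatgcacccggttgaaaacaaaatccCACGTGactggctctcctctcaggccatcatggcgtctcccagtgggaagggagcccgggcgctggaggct
ATG3: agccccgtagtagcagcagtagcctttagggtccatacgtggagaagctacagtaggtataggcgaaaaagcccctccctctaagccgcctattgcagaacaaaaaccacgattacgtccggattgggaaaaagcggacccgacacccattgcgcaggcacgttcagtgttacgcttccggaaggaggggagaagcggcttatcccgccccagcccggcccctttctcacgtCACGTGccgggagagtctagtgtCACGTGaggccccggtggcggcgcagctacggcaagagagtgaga
RUBCNL: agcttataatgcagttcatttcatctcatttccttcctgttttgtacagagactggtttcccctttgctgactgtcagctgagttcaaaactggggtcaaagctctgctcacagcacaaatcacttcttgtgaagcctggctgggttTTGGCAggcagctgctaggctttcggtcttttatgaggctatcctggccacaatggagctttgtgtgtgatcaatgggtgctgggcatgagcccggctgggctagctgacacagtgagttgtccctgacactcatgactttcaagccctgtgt
ATG4C: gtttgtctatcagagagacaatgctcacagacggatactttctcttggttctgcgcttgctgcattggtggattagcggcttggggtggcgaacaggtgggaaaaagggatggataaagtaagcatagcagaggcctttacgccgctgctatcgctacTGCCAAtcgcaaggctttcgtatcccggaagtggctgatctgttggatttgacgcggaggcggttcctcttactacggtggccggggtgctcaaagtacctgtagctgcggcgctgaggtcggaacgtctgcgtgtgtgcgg
The match in ATG14 begins 21 bases before the start, those in ATG3 18 bases before and 5 bases after it, that in RUBCNL 103 bases before and that in ATG4C 92 bases before. ATG14, ATG3 and RUBCNL were called higher, whereas ATG4C was not called.

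Both strands were searched in all windows. Some genes have several windows, 45 for the 35 members and 35116 for all 27305 genes, and a gene was counted when any of its windows held the motif. RUBCNL has a second window, at chr13:46387203-46387502, without either motif. CACGTG was present in 8.77% of all genes and in 2 of the 35 members, and the longer TCACGTGA, which contains it, in 1.18% of genes and in 1 member, ATG3. TTGGCA was found in 15.02% of genes and in 2 members. The shorter TTGGC, which TTGGCA contains, stood in 50.6% of genes and in 19 of 35 members, of which 14 were higher, 2 lower and 3 not called. The full palindrome, TTGGC and GCCAA spaced by 5 bases, was in 10 windows of all genes and in no member. These matches describe letters in the window and say nothing about binding.

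In the ULK complex the kinase and its large scaffold were higher, while the smaller partner subunits were lower. ULK1 (chr12:131894622-131923150, plus strand), the kinase that starts autophagy, had 57.7, 45.8 and 53.6 CPM with scrambled shRNA and 89.9, 87.9 and 84.6 CPM with NFIC shRNA. All NFIC shRNA samples lay above all scrambled shRNA samples, and scrambled replicate 2 was the lowest. The increase was 1.67-fold, with a log2 fold change of 0.74 ± 0.07 (SE) and an edgeR adjusted p of 1.59e-07. RB1CC1 (FIP200; chr8:52622458-52745843, minus strand), the scaffold that holds the complex together, had 53.0, 51.4 and 53.8 CPM against 77.7, 75.0 and 76.1 CPM, and the samples of each group lay close together without overlap. Its log2 fold change was 0.53 ± 0.06, with an edgeR adjusted p of 2.74e-07.

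ATG13 and ATG101, which bind each other and link ULK1 to RB1CC1, both fell. ATG13 went from 116 ± 2.0 to 93.0 ± 2.3 CPM (mean ± SD, n = 3 per group), a log2 fold change of -0.32, and ATG101 from 20.6 ± 0.11 to 15.9 ± 0.84 CPM, a log2 fold change of -0.37. ATG101 shares 19.2% of its exon bases with a long non-coding RNA on the opposite strand that was also lower (log2 fold change -0.33). ULK2, the second kinase, was at 12.01 ± 1.4 and 12.3 ± 1.1 CPM and was not called (log2 fold change 0.03, 95% interval -0.19 to 0.26). Per length, ULK1 was the main form in both groups, with 84.8% ± 2.7 of the summed FPKM of the ULK1 and ULK2 pair in scrambled shRNA samples and 90.2% ± 0.61 in NFIC shRNA samples.

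Among the genes of the lipid kinase complex and its regulators, 5 of 8 rose (62.5% called, beside 59.9% of all tested genes). The catalytic subunit, PIK3R4 and UVRAG did not pass the test. The 5 were the subunits BECN1 and ATG14 and the regulators AMBRA1, RUBCN and RUBCNL. PIK3C3 (VPS34), the catalytic subunit, was at 46.9 ± 1.6 and 46.0 ± 0.91 CPM (log2 fold change -0.03, 95% interval -0.16 to 0.10), and PIK3R4 (VPS15), its regulatory partner, at 42.5 ± 1.1 and 44.8 ± 2.5 CPM (0.08, -0.06 to 0.21). UVRAG, the subunit of the endosomal form of the complex, was at 28.5 ± 1.6 and 29.3 ± 1.5 CPM (0.04, -0.12 to 0.19). The samples of both groups overlapped for these 3 genes. BECN1, the scaffold of the complex, had a log2 fold change of 0.23, AMBRA1, which tethers and regulates BECN1, of 0.31, and ATG14, which directs the complex to sites where autophagosomes form, of 0.39. All 3 were called higher, with edgeR adjusted p-values of 0.000916, 0.00124 and 0.0005. BECN1 shares 12.4% of its exon bases with CNTD1 and 4.7% with PSME3, both on the opposite strand. CNTD1 and PSME3 were called higher as well (log2 fold changes 0.21 and 0.12).

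ATG14 and UVRAG are alternative partners of the same complex. The FPKM ratio of ATG14 over UVRAG was 1.21, 0.954 and 1.00 in scrambled shRNA samples, against 1.46, 1.29 and 1.28 after knockdown, a pair of ranges that did not overlap. This ratio was chosen after the values were seen. ATG14 shares 20.8% of its exon bases with FBXO34 on the opposite strand, which was not called (log2 fold change 0.15).

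The largest changes in this group were in regulators of the complex. RUBCN (Rubicon; chr3:197668867-197749727, minus strand), known to hold back autophagosome maturation, had 24.4, 22.6 and 25.6 CPM with scrambled shRNA and 50.7, 46.2 and 51.5 CPM with NFIC shRNA. Each NFIC shRNA sample was well above each scrambled shRNA sample, a 2.04-fold increase with a log2 fold change of 1.03 ± 0.07 and an edgeR adjusted p of 2.49e-09. A long non-coding RNA on the opposite strand covers 53.8% of the exon bases of RUBCN. It rose by a similar amount, from 13.5 to 27.3 CPM (log2 fold change 1.02). Reads of this pair in the shared stretch cannot be told apart, and the part of this RNA in the rise of RUBCN was not tested.

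RUBCNL (Pacer; chr13:46334681-46438190, minus strand), known to counter Rubicon and promote maturation, had 26.7, 30.2 and 28.2 CPM against 46.1, 43.3 and 51.3 CPM. The groups did not overlap, and its log2 fold change was 0.73 ± 0.08 with an edgeR adjusted p of 3.07e-07. Its rise had already been seen in an earlier look at these data, so that it is no independent evidence. Together RUBCN and RUBCNL went from a summed 6.73 ± 0.24 to 12.1 ± 0.96 FPKM. RUBCN made up 31.9% ± 2.4 of that sum in scrambled shRNA samples and 36.7% ± 1.1 in NFIC shRNA samples. The deposited length of RUBCNL is 6105 bases, while GENCODE gives it 15923 exon bases. The sum and the shares depend on that length, and they also carry the overlap given above for RUBCN.

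Genes for membrane supply mostly rose. ATG2A (chr11:64894546-64917209, minus strand), which transfers lipid into the growing membrane, had 33.4, 33.2 and 34.0 CPM with scrambled shRNA and 50.7, 55.2 and 50.6 CPM with NFIC shRNA. The scrambled shRNA samples were nearly equal and all lay below the NFIC shRNA samples (log2 fold change 0.64 ± 0.06, edgeR adjusted p = 1.7e-07). WIPI2 (chr7:5190196-5233840, plus strand), which reads phosphatidylinositol 3-phosphate and recruits ATG16L1, had 92.5, 92.4 and 92.8 CPM against 139, 134 and 138 CPM. The groups did not overlap, and it rose with a log2 fold change of 0.57 ± 0.05 (edgeR adjusted p = 3.07e-08).

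WIPI1, its paralog, had a log2 fold change of 0.43 and ATG9A, the scramblase carried on seed vesicles, of 0.29, and both were called higher. The opposite-strand gene ARSG, which shares 24.4% of the exon bases of WIPI1, was lower (log2 fold change -0.42). A long non-coding RNA on the opposite strand shares 3.7% of the exon bases of WIPI1. It was more abundant than WIPI1 and rose from 97.4 to 165.7 CPM (log2 fold change 0.77), and its part in the counts of WIPI1 was not tested. An unnamed protein-coding gene on the same strand shares 38.8% of the exon bases of ATG9A and had a log2 fold change of 0.33. ATG2B, the second lipid transfer protein, had 29.9, 29.9 and 31.8 CPM against 34.3, 31.8 and 35.5 CPM. Its groups just failed to touch, and it did not pass the test (log2 fold change 0.15, edgeR adjusted p = 0.0723). ATG2A accounted for 66.7% ± 0.53 of the summed FPKM of ATG2A and ATG2B with scrambled shRNA and for 73.7% ± 2.0 with NFIC shRNA, whereas the share of WIPI2 among the WIPI genes overlapped between groups, at 67.9% ± 1.5 and 69.9% ± 1.1.

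Of the 11 genes for conjugation and the ATG4 proteases, 8 rose, ATG16L2 and ATG10 were called lower and ATG4C was not called. ATG7, the activating enzyme of both conjugation routes, went from 93.3 ± 0.52 to 126 ± 2.0 CPM (log2 fold change 0.43), and ATG3, which hands ATG8 to the lipid, from 76.2 ± 0.96 to 102 ± 10 CPM (0.42). VGLL4 on the opposite strand shares 18.1% of the exon bases of ATG7 and was called higher (log2 fold change 0.20). ATG5 had a log2 fold change of 0.32, and ATG12, which is joined to ATG5, of 0.20 with an edgeR adjusted p of 0.0184. ATG12 was the only called member whose call was lost under any of the 14 alternatives of the test. It was no longer called under upper-quartile scaling (log2 fold change 0.15, edgeR adjusted p = 0.0759) or without scrambled replicate 3 (0.15, 0.124).

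ATG16L1 and ATG16L2, paralogs that bind the ATG12 and ATG5 conjugate, moved in opposite directions. ATG16L1 (chr2:233210051-233295674, plus strand), which sets where the conjugation takes place, had 30.3, 31.1 and 28.8 CPM with scrambled shRNA and 44.3, 43.1 and 49.97 CPM with NFIC shRNA (log2 fold change 0.61 ± 0.07, edgeR adjusted p = 1.31e-06). ATG16L2 (chr11:72814406-72843674, plus strand) had 148, 130 and 139 CPM against 90.7, 104 and 74.6 CPM (log2 fold change -0.63 ± 0.10, edgeR adjusted p = 0.000176). Neither gene overlapped between groups, and the NFIC shRNA samples of ATG16L2 were widely spread. Per length, ATG16L1 made up 22.4%, 25.2% and 22.6% of the summed FPKM of both with scrambled shRNA, against 40.8%, 37.0% and 48.6% after knockdown, so that ATG16L2 stayed the larger part in every sample. FCHSD2, which shares 8.0% of the exon bases of ATG16L2 on the opposite strand, was lower as well (log2 fold change -0.52).

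The ATG4 proteases, which trim the ATG8 proteins and free them from lipid again, differed among themselves. ATG4D (chr19:10543895-10553418, plus strand) had 15.9, 15.5 and 15.4 CPM with scrambled shRNA and 28.3, 26.5 and 28.3 CPM with NFIC shRNA, and the groups lay far apart (log2 fold change 0.83 ± 0.08, edgeR adjusted p = 7.09e-08). KRI1 on the opposite strand shares 14.7% of the exon bases of ATG4D and was also called higher, from 59.9 to 70.3 CPM (log2 fold change 0.23). ATG4A and ATG4B were higher too, with log2 fold changes of 0.44 and 0.40. ATG4C was at 15.1 ± 0.47 and 15.8 ± 0.40 CPM and was not called (log2 fold change 0.07, 95% interval -0.11 to 0.24). The share of ATG4D in the summed FPKM of the 4 genes went from 27.2% ± 0.15 to 34.6% ± 1.2, and those of ATG4B and ATG4C went from 45.3% ± 0.36 to 42.8% ± 1.6 and from 19.2% ± 0.77 to 14.4% ± 0.24. The share of ATG4A overlapped between groups (8.36% and 8.16%).

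ATG10 (chr5:81972023-82276857, plus strand), the enzyme that joins ATG12 to ATG5, was listed with 1445, 1299 and 1419 CPM with scrambled shRNA and 701, 852 and 688 CPM with NFIC shRNA (log2 fold change -0.89 ± 0.07, edgeR adjusted p = 1.04e-07). At a mean of 252 FPKM it stood far above all other members, of which the next, GABARAP, had 38.9 FPKM with scrambled shRNA. ATG10 shares 374 bases, 6.9% of its exon bases, with the ribosomal protein gene RPS23 on the opposite strand. The counts of ATG10 were between 0.933 and 0.947 times those of RPS23 in each of the 6 samples, and RPS23 had a log2 fold change of -0.88. The reads of ATG10 and RPS23 therefore cannot be told apart in this table, and the value listed for ATG10 cannot be read as its own. Without it, 29 members were higher and 4 lower.

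**Figure D1:**
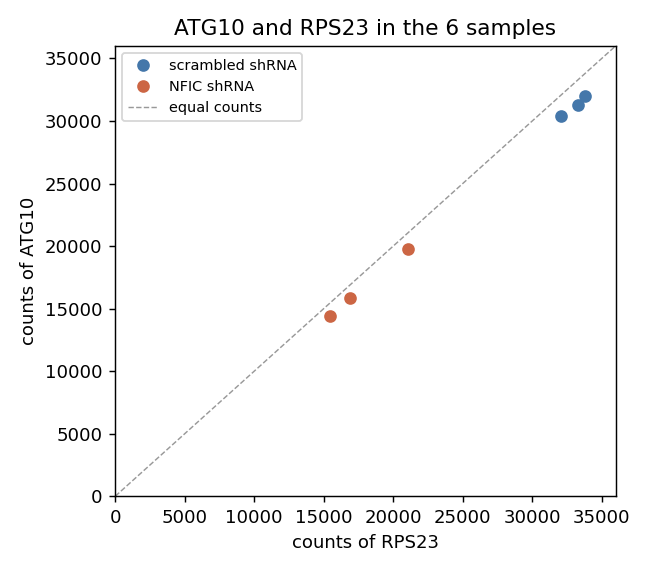
Counts of ATG10 (y axis) against counts of RPS23 (x axis) in the 6 samples, 1 point per sample, with scrambled shRNA in blue, NFIC shRNA in orange and a dashed line at equal counts. All 6 points lie just under the line, at 0.933 to 0.947 ATG10 counts per RPS23 count.

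The ATG8 genes showed the widest range of changes of any role group. MAP1LC3A (LC3A; chr20:34546854-34560345, plus strand) had 20.9, 18.9 and 19.8 CPM with scrambled shRNA and 8.78, 9.61 and 8.50 CPM with NFIC shRNA. Every NFIC shRNA sample was at about the same low level, and the groups lay far apart (0.453-fold, log2 fold change -1.14 ± 0.09, edgeR adjusted p = 1.48e-08). No other gene of the table overlaps its exons.

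MAP1LC3B (LC3B; chr16:87383953-87404779, plus strand), the form used most often to mark autophagosomes, had 38.0, 30.3 and 35.6 CPM against 58.4, 55.8 and 63.5 CPM. Scrambled replicate 2 was again the lowest, and the groups did not overlap (log2 fold change 0.78 ± 0.08, edgeR adjusted p = 2.81e-07). Its near-copy MAP1LC3B2 was near 0 in all samples (at most 0.302 CPM) and was not tested. GABARAPL1 (chr12:10212458-10223128, plus strand), of the GABARAP branch that serves late steps of closure and fusion, had 12.02, 12.8 and 13.3 CPM against 24.4, 24.7 and 23.5 CPM, a 1.90-fold increase (log2 fold change 0.93 ± 0.08, edgeR adjusted p = 4.24e-08). GABARAP and GABARAPL2 rose less, from 76.8 ± 2.6 to 90.2 ± 6.3 CPM and from 44.03 ± 1.5 to 51.4 ± 0.61 CPM, with log2 fold changes of 0.23 and 0.22. An unnamed protein-coding gene on the same strand shares 35.4% of the exon bases of GABARAP and had a log2 fold change of 0.18.

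Per length, the summed level of the 5 ATG8 genes differed little, at 80.2 ± 3.2 FPKM with scrambled shRNA and 88.7 ± 3.9 FPKM with NFIC shRNA (1.11 times), while its makeup shifted. MAP1LC3A held 21.6%, 21.2% and 20.9% of this sum with scrambled shRNA, against 8.80%, 9.56% and 7.96% after knockdown. MAP1LC3B went from 8.45% ± 0.63 to 13.2% ± 0.47 and GABARAPL1 from 3.86% ± 0.29 to 6.72% ± 0.41. GABARAP stayed the main form, with 48.5% ± 0.47 and 52.0% ± 1.6, and GABARAPL2 held 18.0% ± 0.16 and 19.2% ± 0.88. The FPKM ratio of MAP1LC3B over MAP1LC3A was 0.416, 0.366 and 0.412 with scrambled shRNA, against 1.52, 1.33 and 1.71 after knockdown. The ratio was not among the comparisons set in advance. The order of the LC3 genes per length was thus turned round in every NFIC shRNA sample. In CPM, which do not account for length, MAP1LC3B lay above MAP1LC3A in all 6 samples (means of 34.6 and 19.8 CPM with scrambled shRNA).

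**Figure D2:**
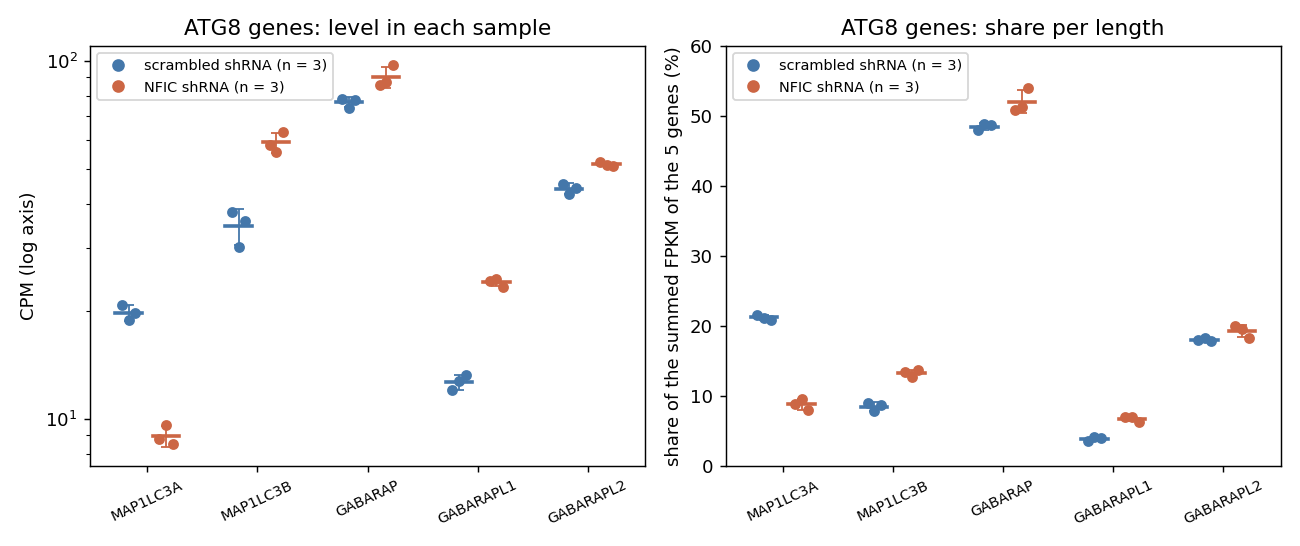
The 5 ATG8 genes in each of the 3 scrambled shRNA samples (blue) and 3 NFIC shRNA samples (orange), as CPM on a log axis (left) and as the share of their summed FPKM in percent (right); wide bars are means and error bars SD. The share of MAP1LC3A falls from 21.2% to 8.78%, and GABARAP holds the largest share in both groups.

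All 5 cargo receptors were higher after NFIC knockdown, and none overlapped between groups. OPTN (optineurin; chr10:13099449-13138308, plus strand), a receptor for damaged mitochondria and bacteria, had 16.9, 16.4 and 18.1 CPM with scrambled shRNA and 36.5, 39.4 and 35.02 CPM with NFIC shRNA. It had the largest increase of the 40 members, 2.16-fold (log2 fold change 1.11 ± 0.08, edgeR adjusted p = 2.18e-09), and each NFIC shRNA sample lay well above the scrambled shRNA samples. CALCOCO2 (NDP52; chr17:48831018-48866522, plus strand), which brings ubiquitin-coated bacteria and mitochondria to the autophagosome, had 61.4, 59.1 and 58.5 CPM against 112, 109 and 123 CPM, a 1.92-fold increase (log2 fold change 0.94 ± 0.06, edgeR adjusted p = 5.09e-10).

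SQSTM1 (p62; chr5:179806398-179838078, plus strand), the receptor for ubiquitinated aggregates and itself degraded by autophagy, had 144, 123 and 140.2 CPM with scrambled shRNA and 210, 199 and 213 CPM with NFIC shRNA (log2 fold change 0.61 ± 0.06, edgeR adjusted p = 1.2e-07). The lowest value was that of scrambled replicate 2, and the groups lay apart. MRNIP on the opposite strand shares 21.0% of the exon bases of SQSTM1 and was higher too (log2 fold change 0.50). NBR1 (chr17:43170481-43211689, plus strand), which acts beside SQSTM1 in aggregate clearance, had 110.4, 109 and 113 CPM against 168, 165 and 189 CPM (log2 fold change 0.66 ± 0.06, edgeR adjusted p = 3.01e-08). TAX1BP1 (chr7:27739331-27844564, plus strand), which clears aggregates and restrains inflammatory signaling, had 192, 198 and 203 CPM against 285, 274 and 307 CPM (log2 fold change 0.55 ± 0.05, edgeR adjusted p = 1.06e-07). NFIC replicate 3 was the highest sample for SQSTM1, NBR1, CALCOCO2 and TAX1BP1, and the lowest of its group for OPTN.

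The summed level of the 5 receptors went from 62.5 ± 1.9 to 100.6 ± 5.3 FPKM, 1.61 times. TAX1BP1 and SQSTM1 were the most abundant of them in both groups, with 21.3 ± 0.62 and 17.8 ± 1.4 FPKM with scrambled shRNA and 31.5 ± 2.0 and 27.5 ± 1.1 FPKM with NFIC shRNA, and OPTN was the least abundant, with 3.29 ± 0.17 and 7.19 ± 0.41 FPKM. As shares of the sum, OPTN went from 5.27% ± 0.15 to 7.17% ± 0.75, CALCOCO2 from 11.3% ± 0.40 to 13.7% ± 0.24 and TAX1BP1 from 34.1% ± 1.3 to 31.3% ± 0.35, and the shares of SQSTM1 and NBR1 overlapped between groups. EPG5 (chr18:45800581-45967329, minus strand), the tether that makes fusion with the lysosome specific, had 32.3, 25.3 and 27.9 CPM against 41.2, 38.2 and 44.9 CPM (log2 fold change 0.54 ± 0.09, edgeR adjusted p = 4.78e-05), with scrambled replicate 2 the lowest.

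**Figure D3:**
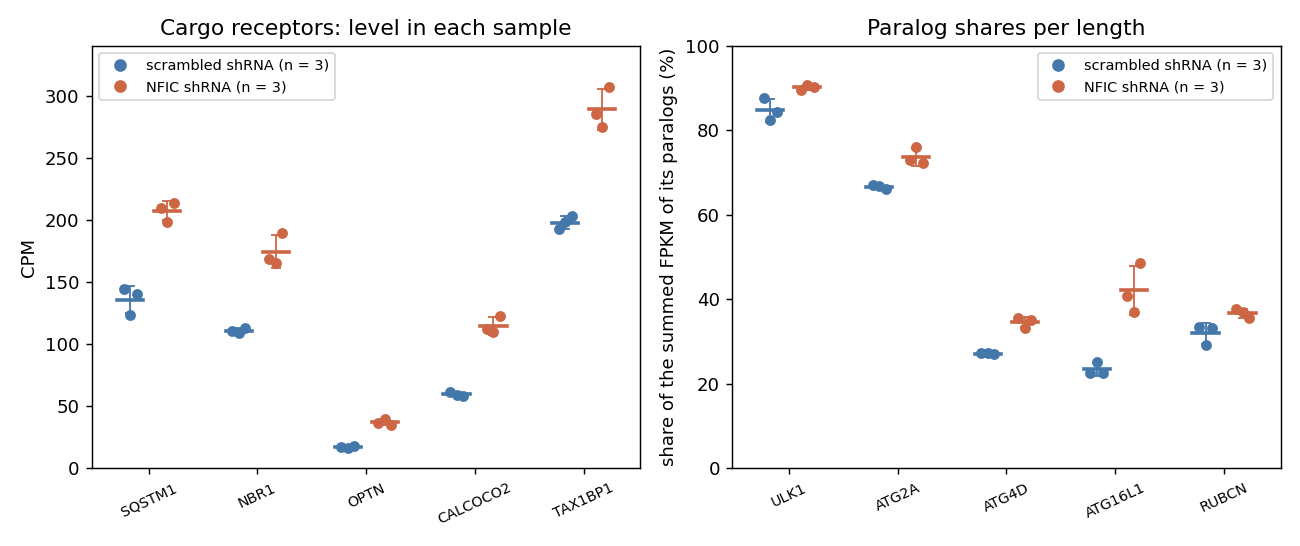
Left, CPM of the 5 cargo receptors in each sample (scrambled shRNA in blue, NFIC shRNA in orange, 3 each); right, the share of ULK1, ATG2A, ATG4D, ATG16L1 and RUBCN in the summed FPKM of each gene and its paralogs, in percent; wide bars are means and error bars SD. All 5 receptors lie higher in every NFIC shRNA sample, and the share of ATG16L1 goes from 23.4% to 42.1%.

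Of 24 paralog and receptor shares computed, 19 were tested, since in a family of 2 the second share mirrors the first. The groups did not overlap for 15 of the 19. The two-sided exact permutation test gave p = 0.1 for each of these, the smallest value that 3 samples against 3 allow in this test, and 0.127 after Benjamini-Hochberg adjustment, so that this test cannot place a share below 0.05.

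Genes of the wider pathway also moved in both directions, with list medians below that of the members. Of 18 further core genes on the list, 16 were tested, of which 8 were higher, 2 lower and 6 not called (median log2 fold change 0.21). The share called, 62.5%, lay near the 59.9% of all tested genes, and 8 of 16 were higher, beside 29.6% of all tested genes. TP53INP1, which binds ATG8 proteins under stress, went from 12.4 ± 0.38 to 30.8 ± 0.93 CPM (log2 fold change 1.30, edgeR adjusted p = 3.76e-10), and ZFYVE1 (DFCP1), which marks the membrane platform where autophagosomes form, from 20.1 ± 0.19 to 38.5 ± 0.54 CPM (0.94, 3.9e-09). ATG9B, the second ATG9 gene, fell from 6.96 ± 1.1 to 1.55 ± 0.26 CPM (-2.16, 2.05e-08), opposite to ATG9A. VMP1, a scramblase needed for membrane expansion, fell from 69.7 ± 2.3 to 57.7 ± 1.7 CPM (-0.27, 0.000539).

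Of the 15 genes for fusion with the lysosome, 10 were higher, 3 lower and 2 not called (median log2 fold change 0.24), or 66.7% higher and 3 of 15 lower, beside 29.6% and 30.3% of all tested genes. RAB7A, the GTPase of late endosomes, rose from 295 ± 6.0 to 482 ± 11 CPM (0.71, edgeR adjusted p = 1.22e-09), and PLEKHM1, an adaptor that binds both RAB7A and ATG8 proteins, from 33.3 ± 1.8 to 53.3 ± 2.8 CPM (0.68, 1.53e-07). VPS39 and VPS41, which are specific to the HOPS tethering complex, fell (log2 fold changes -0.34 and -0.32). Its other listed subunits, VPS11, VPS18, VPS16 and VPS33A, were called higher (log2 fold changes 0.64, 0.47, 0.26 and 0.21). The remaining gene called lower was STX17 (log2 fold change -0.21). Of 16 other selective receptors, with the kinase TBK1 among them, 8 were higher, 2 lower and 6 not called (median log2 fold change 0.26), and the share called, 62.5%, was again near the 59.9% of all tested genes. WDFY3 (ALFY), an aggregate adaptor, rose from 79.4 ± 1.3 to 167 ± 13 CPM (1.07, edgeR adjusted p = 1.32e-10) and BNIP3L (NIX), a mitochondrial receptor, from 43.8 ± 4.0 to 84.5 ± 6.4 CPM (0.95, 8.28e-09). PHB2, an inner mitochondrial membrane protein that also serves as a receptor, fell from 202 ± 6.6 to 82.1 ± 2.8 CPM (-1.30, 3.6e-12), and NCOA4, the ferritin receptor, had a log2 fold change of -0.24.

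**Figure D4:**
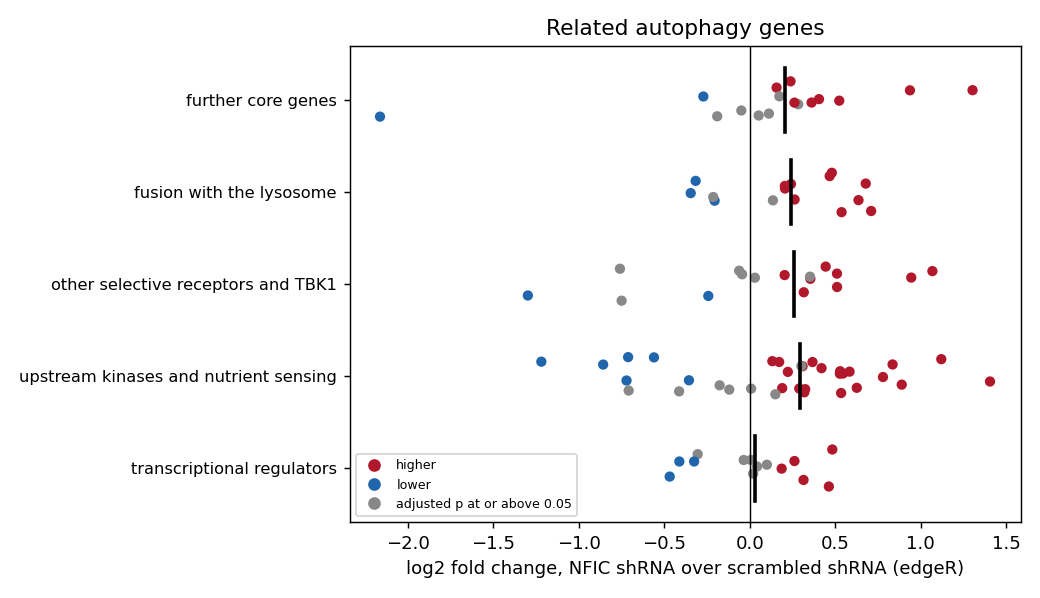
Log2 fold change (x axis, NFIC shRNA over scrambled shRNA, edgeR) of the 95 tested genes of 5 related lists, 1 point per gene, red for higher, blue for lower and gray for not called; vertical bars are list medians, and vertical position within a list carries no value. List medians lie between 0.03 and 0.30, and ATG9B lies farthest to the left at -2.16.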

How the data were processed

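The deposited table held whole-number counts per gene for each of the 6 samples. Per the methods of the study, the authors trimmed reads with Trim Galore, mapped them to GRCh38 with STAR and counted them with featureCounts on an Ensembl annotation; strand, duplicate and multi-mapping settings are not given in the sources used here. The authors also deposited a normalized signal (the count divided by 1 size factor per sample from DESeq2) and FPKM values made from that signal and the gene length, which sum to the same total in every sample. Columns with the authors' own fold changes and p-values were not used.

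Counts were tested with edgeR 4.0.16 (filterByExpr, TMM, robust quasi-likelihood fit, no replicate block, R 4.3.3), with Benjamini-Hochberg adjustment over all genes tested. The step was run on simulated data in which 200 genes were changed. In the real data 59.9% of genes were called, so that the simulation does not test the scaling when so many genes change. CPM use the TMM library sizes, and levels between genes were compared in deposited FPKM. DESeq2 1.42.0, limma 3.58.1 (on log2 of the normalized signal + 1), other scalings, other filters and leaving out each sample were alternatives. Positions and overlaps are from GENCODE on GRCh38. Samples of a group differed beyond sampling noise (chi-square per degree of freedom of 1.99 to 7.91). All 40 members are named, with values in every sample where a called member had an absolute log2 fold change of at least 0.5. Of each related list up to 2 called genes in each direction are named, and of the fusion list some further called genes. The members and the lists were chosen with earlier results of these data known. FUNDC1, MAP1LC3C and PRKAA2 were not analysed here.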

Additional observations from a re-analysis of the deposited data

How the results depend on the processing

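Of the 40 members, 38 kept their call under all 14 alternatives. ATG12 lost its call under 2 of them (given beside its value), and ATG2B gained one with scaling by total counts (log2 fold change 0.17, edgeR adjusted p = 0.0429) and without NFIC replicate 2 (0.20, 0.032). No called member changed sign. At a stricter adjusted p of 0.01, 33 members were called and ATG12 was not. The number of called members was 33 to 35 when each sample was left out in turn. After the data were seen, members that overlap another gene were left out, which left 13 called of 18, of which 12 were higher and 1 lower, a smaller count because fewer members were counted. Samples with the same number did not deviate together (correlations of 0.045, -0.082 and -0.047 over 19030 genes), and with a replicate block 34 members were called, 29 higher and 5 lower. Upper-quartile scaling moved the median of all genes to -0.07 and gave 28 higher and 5 lower members. With 3 samples per group, a log2 fold change such as that of ATG2B is near what the test could separate from 0, and ATG10 has no usable value of its own at any depth.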

Other observations

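Genes upstream of the autophagy machinery moved in both directions. Of 34 tested genes for the kinases mTORC1 and AMPK and for nutrient sensing at the lysosome, 21 were higher, 6 lower and 7 not called (edgeR, adjusted p under 0.05), with a median log2 fold change of 0.30. As shares, 61.8% were higher and 17.6% lower, beside 29.6% and 30.3% of all tested genes and 39.7% higher among protein-coding genes at the level of the members. FNIP2, which partners folliculin in the control of the Rag GTPases, rose from 19.0 ± 0.24 to 50.4 ± 5.7 CPM (mean ± SD, n = 3 per group; log2 fold change 1.41, edgeR adjusted p = 2.74e-10), and RRAGD, a Rag GTPase, from 59.98 ± 2.3 to 130.5 ± 1.1 CPM (1.12, 2.73e-11). DDIT4 (REDD1), a stress-induced inhibitor of mTORC1, fell from 83.4 ± 4.5 to 35.8 ± 5.0 CPM (-1.22, 4.07e-09), and NPRL3, a subunit of the GATOR complex that restrains mTORC1 when amino acids are scarce, from 43.4 ± 2.4 to 24.0 ± 2.6 CPM (-0.86, 9.34e-08). The granulocyte markers that were lower in the same samples are given in the report, and their part in these values was not tested.

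Of 14 transcription factors known to act on autophagy genes, 5 were higher, 3 lower and 6 not called, with a median log2 fold change of 0.03. The share called, 57.1%, was near the 59.9% of all tested genes. TFEB, the best known activator of lysosomal and autophagy genes, had 16.97, 14.6 and 15.6 CPM with scrambled shRNA and 10.1, 14.0 and 9.93 CPM with NFIC shRNA (log2 fold change -0.47, edgeR adjusted p = 0.00331), and NFIC replicate 2 lay near the scrambled shRNA samples. TFEC, of the same MiT/TFE family, rose from 88.8 ± 2.7 to 124 ± 1.5 CPM (0.48, 3.07e-07), and DDIT3 (CHOP), a stress response factor, from 47.2 ± 3.9 to 65.1 ± 2.3 CPM (0.46, 1.2e-05). HIF1A, the hypoxia factor, fell from 74.4 ± 2.4 to 55.9 ± 2.7 CPM (-0.41, 1.07e-05). Transcript levels of these kinases and factors do not measure their activity.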
